A study of Homo sapiens with 9 samples.

Results

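RNA polymerase II (RNAPII) ChIP-seq peaks were examined over 9 genes whose products act on DNA structure: the RecQ helicases other than RECQL5 (RECQL, BLM, WRN and RECQL4) and the topoisomerases TOP1, TOP2A, TOP2B, TOP3A and TOP3B. The genes were chosen by family and not by their values. A peak was assigned to a gene when it overlapped its GENCODE span on GRCh37 widened by 500 bp on each side, and the 9 genes were taken from 20162 protein-coding genes. All cells were HEK293, a human embryonic kidney line. In the hairpin arm they were infected with lentivirus carrying a control shRNA (shCTRL, the empty pLKO.1 vector) or either of 2 shRNAs against RECQL5, shRNA5 and shRNA7. In the doxycycline arm, HEK293 T-REx cells held a pcDNA4/TO-RECQL5 plasmid that expresses full-length RECQL5 from a doxycycline-inducible promoter, and were grown with 0.0 ng/ml (Doxy 0.0) or 1.0 ng/ml (Doxy 1.0) doxycycline. Each of these 5 groups was 1 library, immunoprecipitated with the RNAPII antibody 4H8, and 4 libraries made with non-specific IgG served as background. With 1 library per group no difference between conditions was tested, and comparisons were made only within an arm.

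RecQ helicases unwind DNA in the 3' to 5' direction and process forks, displaced strands and recombination intermediates. BLM, lost in Bloom syndrome, works with TOP3A and the RMI proteins to take apart joined DNA molecules without crossing over. WRN, lost in Werner syndrome, has an exonuclease beside its helicase, RECQL4 takes part in the start of replication and is mutated in Rothmund-Thomson syndrome, and RECQL (RECQ1) is an abundant member that can restore reversed forks. Topoisomerases relieve the supercoils that RNAPII generates as it moves: TOP1 nicks a single strand, TOP2A (in dividing cells) and TOP2B (in most cells) pass one duplex through another, and TOP3A and TOP3B act on single strands, TOP3B also on RNA. RECQL5 is the family member that binds RNAPII. ChIP-seq peaks over a gene report where RNAPII is concentrated on it, not how much mRNA or protein is made.

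Promoters of 7 of the 9 genes were matched in RefSeq (build GRCh38.p14), and each was found unchanged in GRCh37. WRN and RECQL4 were left out of this step, and no match was sought for them. Shown here are those of the genes with a peak at the transcription start site (TSS) in the shCTRL list, RECQL, BLM, TOP1 and TOP2A. They lie at chr12:21654520-21654819 (minus strand), chr15:91260327-91260626 (plus), chr20:39657212-39657511 (plus) and chr17:38574099-38574398 (minus). Each runs 5' to 3' from 250 bases before the start to 50 after it. Capitals mark matches, on either strand, to CCAAT (the CCAAT box), to GGGCGG (the GC box), to TATAAA (the TATA box) and to the string CGCG, which can overlap one another.
RECQL: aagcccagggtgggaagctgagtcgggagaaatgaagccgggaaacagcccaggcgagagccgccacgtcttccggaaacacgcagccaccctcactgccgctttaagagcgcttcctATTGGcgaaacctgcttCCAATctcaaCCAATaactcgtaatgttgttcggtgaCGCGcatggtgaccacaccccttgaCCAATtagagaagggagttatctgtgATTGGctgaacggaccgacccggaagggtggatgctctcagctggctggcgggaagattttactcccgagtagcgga
BLM: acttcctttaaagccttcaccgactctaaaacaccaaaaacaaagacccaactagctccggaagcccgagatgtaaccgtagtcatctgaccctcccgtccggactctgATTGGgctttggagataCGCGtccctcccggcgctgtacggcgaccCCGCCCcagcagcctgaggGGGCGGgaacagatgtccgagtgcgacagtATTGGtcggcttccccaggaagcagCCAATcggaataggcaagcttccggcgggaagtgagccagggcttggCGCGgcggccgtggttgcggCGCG
TOP1: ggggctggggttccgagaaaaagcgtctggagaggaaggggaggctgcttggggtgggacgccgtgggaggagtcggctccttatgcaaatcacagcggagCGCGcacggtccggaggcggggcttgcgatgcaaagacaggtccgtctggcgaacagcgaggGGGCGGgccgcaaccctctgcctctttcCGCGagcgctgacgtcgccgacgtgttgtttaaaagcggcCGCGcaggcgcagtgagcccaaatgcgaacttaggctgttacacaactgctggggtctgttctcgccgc
TOP2A: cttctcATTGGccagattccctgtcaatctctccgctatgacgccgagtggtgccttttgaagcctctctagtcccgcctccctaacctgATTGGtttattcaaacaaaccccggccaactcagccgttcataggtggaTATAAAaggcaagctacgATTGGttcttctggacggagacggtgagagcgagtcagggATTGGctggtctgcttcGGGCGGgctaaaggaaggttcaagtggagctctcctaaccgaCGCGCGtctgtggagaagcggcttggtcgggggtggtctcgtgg
In every list with a TSS peak over one of these 4 genes, that peak covered 100% of the 300 bases. CCAAT was present 5 times in RECQL, 4 times in TOP2A and 3 times in BLM, and was not found in TOP1, TOP3A or TOP3B. It was found in 34.6% of all 35116 RefSeq promoters of this length. TATAAA was found only in TOP2A among the genes matched, 111 bases before the start, and in 11.5% of all promoters. GGGCGG (45.0% of all) occurred in each matched gene except RECQL, and CGCG (49.9%) in every matched gene. TTTGGCGC and TTTCCCGC, strings bound by E2F factors, were in none of these promoters and in 0.652% and 1.63% of all. The GC content of the 4 sequences ran from 55.7% in TOP2A to 64.7% in TOP1, against a median of 58.7% over all promoters. These matches describe the letters and do not show binding.

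The 5 lists differed much in size, which bears on every value that follows. They held 5287 (shCTRL), 23698 (shRNA5), 32124 (shRNA7), 47060 (Doxy 0.0) and 33900 (Doxy 1.0) peaks. Median peak lengths were 1834 to 2024 bp in the hairpin arm and 622 to 689 bp in the doxycycline arm. The fewest tags in a peak were 35, 27 and 26 in the hairpin lists and 9 and 11 in the doxycycline lists. The lists give tags inside peaks only and no library totals, so a gene without a peak has no value. The study's methods state that compared libraries had similar numbers of reads, which could not be checked here. The hairpin lists, and shCTRL above all, hold fewer peaks than the study's methods give for wild-type, shRNA5 and shRNA7 cells, for a reason that was not tested, so absence from shCTRL means only that this list has no peak there, and folds against it rest on this list. RECQL5 itself had no peak in the shCTRL and shRNA5 lists, 2 peaks in shRNA7 and 8 in each doxycycline list, which does not measure its knockdown or its induction. Of 4 markers of HEK293 cells, 0, 0, 1, 3 and 0 had a peak in the 5 lists, and of 5 markers of other cell types none had one in any list, so the cell type rests on the labels.

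The spans (GRCh37) were chr12:21621844-21654603 for RECQL, chr15:91260577-91359396 for BLM, chr8:30891304-31033654 for WRN, chr8:145736671-145743229 for RECQL4, chr20:39657462-39753127 for TOP1, chr17:38544777-38574148 for TOP2A, chr3:25639469-25706400 for TOP2B, chr17:18174742-18218321 for TOP3A and chr22:22311397-22337210 for TOP3B. BLM, WRN and TOP1 are on the plus strand and the others on the minus strand. RNAPII peaks were present over all 9 genes in the shRNA5 and Doxy 0.0 lists, and over 8 in shRNA7 (all but TOP2A), 8 in Doxy 1.0 (all but TOP2B) and 5 in shCTRL. RECQL, BLM, TOP1 and TOP3A carried a peak in each of the 5 lists. A peak at a TSS, meaning within 500 bp of a start of a protein-coding transcript, was found in 4 of the 9 genes in shCTRL, 8 in shRNA5, 8 in shRNA7, 9 in Doxy 0.0 and 8 in Doxy 1.0. Among all protein-coding genes the corresponding shares were 17.2%, 44.5%, 52.8%, 56.9% and 48.2%. The 9 genes together had 8, 41, 37, 75 and 99 peaks in the order shCTRL, shRNA5, shRNA7, Doxy 0.0, Doxy 1.0. Those peaks held 1620, 7157, 8806, 1911 and 3162 tags over 31.7, 119, 133, 67.5 and 85.3 kb, or 51.1, 60.2, 66.0, 28.3 and 37.1 tags per kb of peak. Most of them lay in gene bodies, from 500 bp past the TSS to the gene end, except in shCTRL: 37.5% (shCTRL), 70.7%, 64.9%, 84.0% and 88.9% of the peaks. Over all positions, 72 summits were intronic and 22 exonic in Doxy 1.0, 54 and 13 in Doxy 0.0, 28 and 6 in shRNA5, 23 and 5 in shRNA7, and 3 and 3 in shCTRL.

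**Figure D1:**
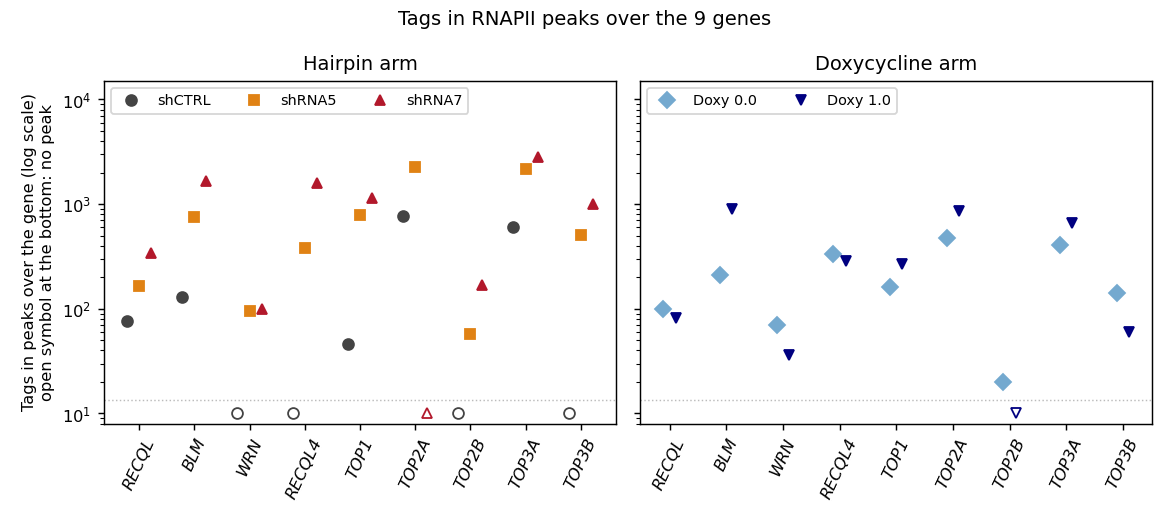
Tags in RNAPII peaks over each of the 9 genes (log axis) in the hairpin arm and in the doxycycline arm, 1 point per library. Open symbols below the dotted line have no peak and no value: 4 genes in shCTRL, TOP2A in shRNA7 and TOP2B in Doxy 1.0.

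Upon RECQL5 depletion, peaks over the 9 genes became more numerous and held more tags, as over nearly all genes. With shRNA5, 9 of the 9 genes were higher than in shCTRL, where higher means tags in peaks at least 2-fold up or a peak in the shRNA list alone. Of all protein-coding genes with a peak in either list, 90.7% were higher and 0.282% lower by the same rule, so 9 of 9 is close to the background. With shRNA7, 8 genes were higher and 1, TOP2A, was lower. The background was 96.9% higher and 1.67% lower. The 2 comparisons share the shCTRL list and are not independent of each other. The number of peaks over the 9 genes was 5.12-fold that of shCTRL with shRNA5 (95% interval 2.44 to 10.7, counting error only, as for every interval here) and 4.62-fold with shRNA7 (2.19 to 9.76). Over all protein-coding genes it was 4.33-fold and 5.89-fold. Tags in peaks were 4.42-fold those of shCTRL (4.19 to 4.66) with shRNA5, against 4.48-fold over all genes. With shRNA7 they were 5.44-fold (5.16 to 5.73), against 8.07-fold. Without TOP2A, which had 766 tags in shCTRL and no shRNA7 peak, the value was 10.3. The 8.07 keeps the 195 genes with a peak in shCTRL and none in shRNA7, so it is not a matching background for 10.3. When each pair of lists was reduced to the 5287 peaks with the highest scores, the folds in tags were 3.0 and 3.04, and the number of peaks with shRNA7 was 0.750-fold that of shCTRL. Peaks over the 9 genes reached an FDR of 19.3% with shRNA7, against 1.68% with shRNA5 and 1.97% in shCTRL.

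Among the helicases, BLM showed the largest fold of the 2 genes with a peak in every hairpin list. Its peaks held 130 tags in shCTRL, 760 in shRNA5 and 1666 in shRNA7, from 1, 6 and 9 peaks. That is 5.85-fold (4.86 to 7.04) with shRNA5 and 12.8-fold (10.7 to 15.3) with shRNA7. Over the alternatives the folds ran from 2.37 to 9.54 with shRNA5, lowest with stricter or cut lists, and from 7.45 to 22 with shRNA7. The share of the BLM span covered by peaks was 1.18%, 12.6% and 27.1%. Much of the difference lay past the start. The TSS peak alone held 130, 308 and 376 tags, 2.37-fold (1.93 to 2.91) and 2.89-fold (2.37 to 3.53), while gene-body peaks held 0, 452 and 1181 tags. With shRNA7, 996 of those body tags were in the stretch nearest the TSS when the gene was split into 3 equal lengths. Among all genes with a peak in both lists, 21.7% had a larger fold than BLM with shRNA5 and 20.9% with shRNA7.

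RECQL had smaller folds. Its 76, 166 and 344 tags (1, 1 and 5 peaks) gave 2.18-fold (1.67 to 2.86) and 4.53-fold (3.53 to 5.80), below most genes, since 73.2% and 69.1% of genes had larger folds. Of the 5 shRNA7 peaks, 3 in the body had an FDR of 11.2% to 15.9%, and 1 of 51 tags lay past the end, over PYROXD1. Over the alternatives the shRNA7 fold ran from 2.38 to 4.53. The TSS peak of RECQL also reaches GOLT1B, a neighbouring Golgi transport gene, in every list, and with tags shared out by the length inside the RECQL span the shRNA5 value was 99.9 tags against 76.0, under the 2-fold line. WRN and RECQL4 had no peak in shCTRL. WRN had 1 peak at its TSS with 95 tags in shRNA5 and 100 in shRNA7, shared with the neighbouring PURG, and none along the rest of its 142 kb. RECQL4, a short gene of 6.56 kb, had 383 tags in 3 peaks with shRNA5. Of these, 274 were in a peak past its end that reaches MFSD3, and 47 in a TSS peak that reaches LRRC14. With shRNA7 it had 1575 tags in a single peak of 14545 bp that also spans GPT, LRRC14 and MFSD3. In neither list can the tags be given to RECQL4 alone.

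**Figure D2:**
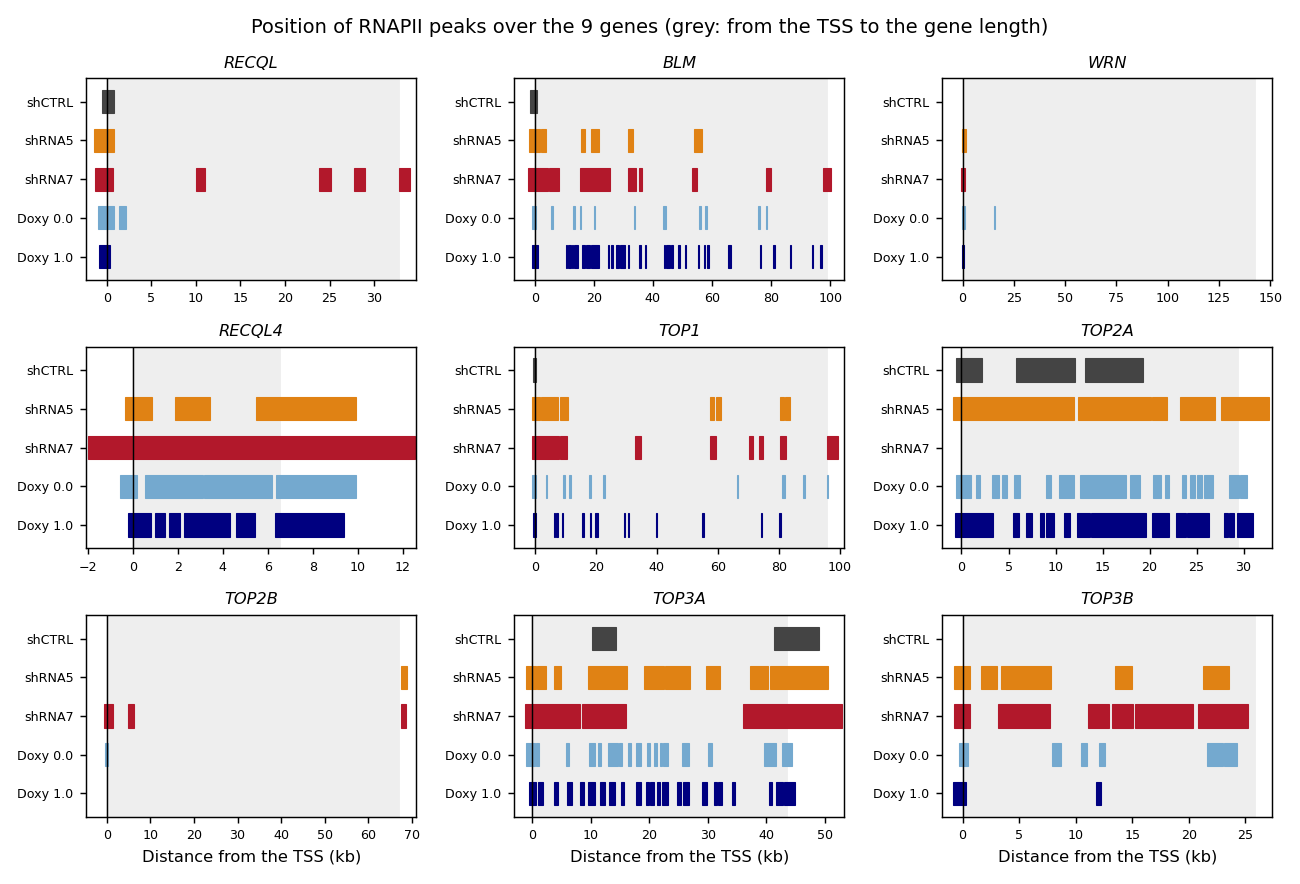
Positions of RNAPII peaks by distance from the TSS (kb) over each gene, 1 row per list, with the gene length in grey. WRN and TOP2B carry peaks at the start or past the end and few between, TOP2A has no shRNA7 peak, and BLM has 34 peaks in Doxy 1.0 against 11 in Doxy 0.0.

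Of the topoisomerases, TOP1 had the largest folds upon depletion among those of the 9 genes with a peak in both lists compared. The 4 genes without a shCTRL peak have no fold to set beside it. Its 46 tags in 1 peak in shCTRL became 786 in 9 peaks with shRNA5 and 1136 in 8 peaks with shRNA7, 17.1-fold (12.7 to 23.0) and 24.7-fold (18.4 to 33.1). With fold enrichment of at least 10 these were 2.52 and 10.8, and with lists cut to equal length the shRNA5 value was 7.98. With shRNA5, 1.52% of genes had a larger fold, and with shRNA7, 5.13%. The shCTRL value of 46 tags is near the minimum of 35 in that list, and a body peak below that minimum would not be listed. At the TSS the shRNA5 peak held 116 tags, 2.52-fold (1.80 to 3.54), and 670 further tags lay in 8 body peaks. With shRNA7 the TSS peak ran over 8931 bp and held 498 tags. When the lists were reduced to equal length, TOP1 kept its shCTRL peak and had no shRNA7 peak, so that its direction turned.

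TOP3A, the partner of BLM, had 602, 2145 and 2808 tags, 3.56-fold (3.26 to 3.90) and 4.66-fold (4.27 to 5.09). Of these, 412, 920 and 1685 tags were in a peak past its end that also covers MIEF2, a mitochondrial fission gene. Its body peaks held 190, 1128 and 518 tags, and its TSS peaks, which reach SMCR8, held 97 tags with shRNA5 and 605 over 9351 bp with shRNA7. TOP3B, the topoisomerase that also acts on RNA, had no peak in shCTRL and 510 and 1010 tags in 5 and 7 peaks upon depletion. Its peaks touched no other protein-coding gene. The TSS part of TOP3B was 75 and 81 tags and the body part 435 and 929. TOP2B had few tags, as had WRN. The only shRNA5 peak of TOP2B (58 tags) lay past the gene end, over RARB, and overlapped the widened span by 18 bp. With the span not widened TOP2B had no shRNA5 peak, and 8 genes were higher with shRNA5. With shRNA7 it had 78 tags at the TSS, 44 in the body and a further peak that also lay over RARB.

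TOP2A was higher with shRNA5 and had no peak with shRNA7. It had 766 tags in 3 peaks in shCTRL and 2254 in 6 peaks with shRNA5, 2.94-fold (2.71 to 3.19), with 91.9% of the span covered. The shRNA7 list was empty over chr17:38499530-38780584, 281 kb that hold 3 peaks with 766 tags in shCTRL and 8 peaks with 2617 tags in shRNA5. The next shRNA7 peaks lay 45.2 kb and 206 kb from TOP2A on either side, at the ends of this interval. GJD3, IGFBP4, TNS4 and CCR7 lie wholly within it too, and none of them had a peak in the shCTRL or shRNA5 list. Of the 3450 genes with a TSS peak in both shCTRL and shRNA5, 139 (4.03%, 3.42 to 4.74) had no shRNA7 peak, whereas 7 of 3258 (0.215%) with a TSS peak in shCTRL and shRNA7 had no shRNA5 peak. The share was higher among genes with many tags. Of 152 genes with at least as many tags as TOP2A in both shCTRL and shRNA5, 27 lacked a shRNA7 peak (17.8%, 12.5 to 24.6). By shCTRL tags only, 45 of the 316 genes with at least as many as TOP2A lacked one (14.2%, 10.8 to 18.5). Of the genes with a peak but fewer tags than TOP2A in shCTRL, 150 of 4263 lacked one (3.52%, 3.01 to 4.11). Why this list lacks peaks over such genes was not tested, and the absent TOP2A peak is not read as absent RNAPII.

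With doxycycline the summed tags of the 9 genes went up more than those of all genes. Peaks over them numbered 99 against 75, 1.32-fold (0.979 to 1.78), an interval that includes no change, against 0.754-fold over all protein-coding genes. Tags in peaks were 1.65-fold (1.56 to 1.75) against 1.10-fold over all genes. BLM carried much of this, and without it the value was 1.33. With fold enrichment of at least 10, the fold over the 9 genes was 0.571 in peaks and 1.09 in tags. With lists of equal length the fold in tags was 1.83. The folds over all genes were not computed under these alternatives, so the excess was shown for the main lists only. By the 2-fold rule 1 gene, BLM, was higher and 2, TOP3B and TOP2B, were lower, against 6.84% higher and 27.4% lower among all genes with a peak in either list. The other 6 genes stayed within 2-fold. The median fold over the 8 genes with a peak in both lists was 1.25, and over 10608 genes 0.957.

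BLM had 211 tags in 11 peaks in Doxy 0.0 and 898 in 34 peaks in Doxy 1.0, 4.26-fold (3.66 to 4.94). The sums are over regions called separately, 6566 bp and 24544 bp of the widened span, and tags in stretches without a peak are not counted, so this is a ratio of listed tags. Only 56 of 10608 genes (0.528%) had a larger fold. Under the 9 other ways of selecting peaks or assigning tags that were tried, the fold ran from 2.12 to 6.0, and BLM was higher in all of them. The TSS peak changed less, from 97 to 161 tags, 1.66-fold (1.29 to 2.13), with the summit upstream of the TSS in both lists. The tags in gene-body peaks went from 114 in 10 peaks to 737 in 33. All parts of the gene took part. Body peaks numbered 4, 4 and 2 in the 5', middle and 3' of the 3 equal stretches without doxycycline and 15, 12 and 6 with it, holding 46, 49 and 19 tags and then 425, 224 and 88. Of the 34 peaks in Doxy 1.0, 8 overlapped a peak of Doxy 0.0, and 6 of the 11 Doxy 0.0 peaks overlapped one of Doxy 1.0. The individual body peaks held 9 to 15 tags (median 10) in Doxy 0.0 and 12 to 55 (median 19.0) in Doxy 1.0, at a median of 19.8 and 31.4 tags per kb. Their median fold enrichment over the local background was 11.4 without doxycycline and 9.23 with it, and their FDR reached 1.09% and 3.46%. All but 3 of the 33 summits in Doxy 1.0 lay in introns.

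**Figure D3:**
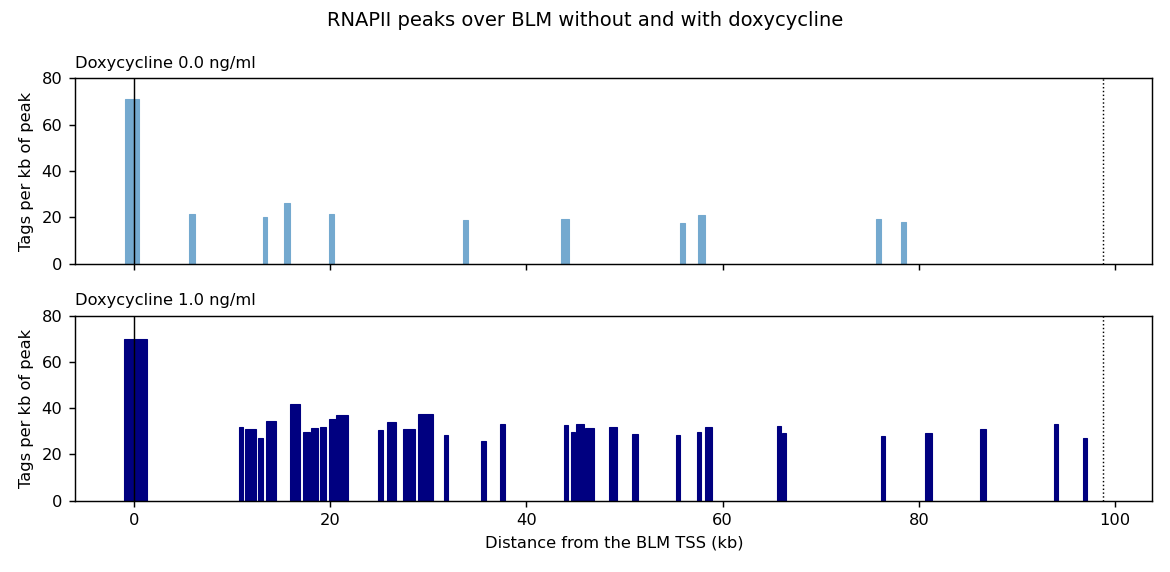
RNAPII peaks over BLM by distance from the TSS (kb) against tags per kb of peak, at 0.0 and 1.0 ng/ml doxycycline, each bar as wide as its peak. The solid line marks the TSS and the dotted line the gene end; the TSS peaks have near-equal height (71.2 and 69.9 tags per kb), and 33 body peaks stand where 10 stood.

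The intronic peak of BLM with the most tags per kb among the 23 in Doxy 1.0 that overlapped none in Doxy 0.0 spans chr15:91276432-91277525, with 46 tags and its summit 16.6 kb past the TSS. The 200 bases around the summit, chr15:91277094-91277293 in GRCh37 on the plus strand, are shown as an example of the sequence under a peak listed in Doxy 1.0 and not in Doxy 0.0, with the summit base in capitals. The nearest Doxy 0.0 peak ended just before this one, and peaks of the shRNA5 and shRNA7 lists cover the same bases.
BLM intronic summit: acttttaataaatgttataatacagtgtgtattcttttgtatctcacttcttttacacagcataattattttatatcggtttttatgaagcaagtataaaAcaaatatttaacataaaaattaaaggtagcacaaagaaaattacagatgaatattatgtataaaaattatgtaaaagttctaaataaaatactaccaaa
Adenine and thymine made up 79.5% of these bases. Over 2 kb at the summit, the median AT content of the 33 body peaks of BLM in Doxy 1.0 was 61.1%, and that of its whole span was 59.3%.

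The remaining genes differed less with doxycycline. TOP2A, the topoisomerase of dividing cells, went from 471 to 869 tags, 1.85-fold (1.65 to 2.06), and its TSS peak from 78 to 154 tags, 1.97-fold (1.5 to 2.59). Most TOP2A peaks were in the same places, 15 of the 18 in Doxy 1.0 overlapping one in Doxy 0.0. TOP1 went from 161 to 268 tags, 1.66-fold (1.37 to 2.02), and 3 of its 13 peaks in Doxy 1.0 overlapped an earlier one. The value for TOP1 was 0.665 when only peaks with a fold enrichment of at least 10 were kept, and 2.03 with lists of equal length. TOP3A went from 406 to 666 tags, 1.64-fold (1.45 to 1.86), with 16 of 23 peaks overlapping. Folds larger than these were seen for 8.24% (TOP2A), 11.3% (TOP1) and 11.8% (TOP3A) of genes. TOP2A crossed the 2-fold line when the lists were reduced to equal length (869 against 434 tags) and with scores of at least 100 (737 against 341).

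TOP3B and TOP2B were lower by the 2-fold rule, as were 27.4% of all genes with a peak in either list. WRN lay close to the 2-fold line. TOP3B went from 141 tags in 6 peaks to 60 in 2, 0.426-fold (0.315 to 0.575), and 7.59% of genes had a smaller fold. Its TSS peak was not lower, at 31 and 47 tags, 1.52-fold (0.967 to 2.38). The difference lay in the body peaks, 110 tags in 5 peaks against 13 in 1. WRN went from 70 to 36 tags, 0.514-fold (0.345 to 0.767), just inside the 2-fold line. Its TSS peak, shared with PURG, had 59 and 36 tags. TOP2B had 1 peak of 20 tags at its TSS in Doxy 0.0 and none in Doxy 1.0, where the smallest listed peak had 11 tags. RECQL (100 and 81 tags, 0.810-fold, 0.605 to 1.08) and RECQL4 (331 and 284 tags, 0.858-fold, 0.732 to 1.01) had intervals that include no change, and over the alternatives RECQL4 ran from 0.637 to 1.51. Its small TSS peak went from 19 to 39 tags, and 143 and 121 of its tags were in a peak past its end that reaches MFSD3.

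**Figure D4:**
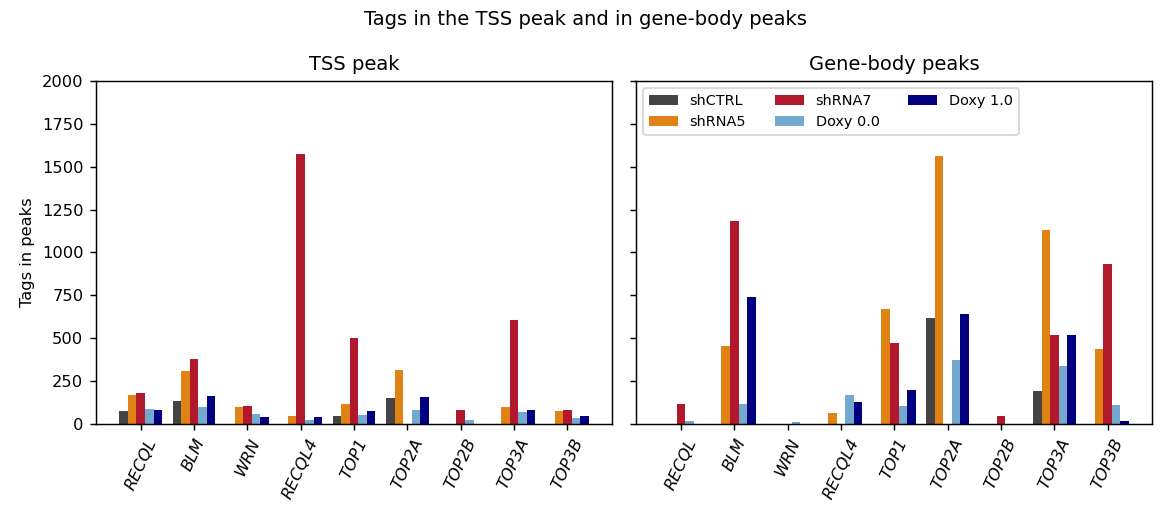
Tags in the TSS peak and in gene-body peaks of each gene in the 5 lists, as bars from 0 with no replicate and no error bar. TOP2A with shRNA5 (1563 tags) and BLM with shRNA7 (1181) hold the most body tags, and the tall RECQL4 bar with shRNA7 is the single peak of 14545 bp.

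Set against gene length, the order of the genes differed between lists. In Doxy 0.0, tags in peaks per kb of widened span were 43.8 over RECQL4, 15.5 over TOP2A, 9.11 over TOP3A, 5.26 over TOP3B, 2.96 over RECQL, 2.11 over BLM, 1.67 over TOP1, 0.488 over WRN and 0.294 over TOP2B. In Doxy 1.0 BLM stood at 9.0 and passed RECQL and TOP3B, which were at 2.40 and 2.24. In shRNA7 the order was led by RECQL4 (208) and TOP3A (63.0), both with peaks that extend into neighbours. With 1 library per group it cannot be said which neighbours in these orders differ beyond the spread between cultures.

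The AT content at the peaks, in 2 kb centred on the summit, was lower at TSSs than in gene bodies in the medians of every list, though not over TOP3B. Member medians were 48.0%, 44.4%, 40.2%, 40.6% and 44.7% at the TSS and 61.9%, 57.9%, 60.0%, 58.3% and 58.5% in gene bodies, in the order shCTRL, shRNA5, shRNA7, Doxy 0.0, Doxy 1.0. Over all peaks of each list the gene-body medians were 55.9%, 58.8%, 60.0%, 55.4% and 57.2%. Body peaks followed the composition of their gene. Those of RECQL4 had medians of 34.2% and 34.7% in the doxycycline lists, in a span with 34.5% AT, and those of TOP3B 43.9% in Doxy 0.0, in a span with 45.0%. The TSS peak of TOP3B had 48.4% there, and it was also the more AT-rich in the other 3 lists with TOP3B peaks. TOP2A peaks, in a span with 60.2%, had 61.6% and 60.0%.

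Partners of these enzymes and genes acting on the same structures were followed as a list of 22 genes that includes RMI1, RMI2, TDRD3, TDP1, TDP2, EXO1 and BRIP1. A TSS peak was present in 5, 21, 21, 20 and 20 of them. With shRNA5, 20 were higher (12 with a peak in shRNA5 alone), none lower and 1 within 2-fold, with a median fold of 4.10 over 9 genes against 3.23 over 4552 genes (background 90.7% higher). With shRNA7, 21 were higher (background 96.9%), with a median of 9.42 against 6.64. With doxycycline, 5 were higher, 2 lower and 15 within 2-fold, with a median of 1.06 against 0.957, where the background was 6.84% higher and 27.4% lower. The higher genes included EXO1, the exonuclease that resects DNA ends with BLM, which had 328 tags in Doxy 0.0 and 1233 in Doxy 1.0, BRIP1, a helicase that partners with BRCA1 (193 and 448), and RNASEH2A, a subunit of RNase H2 (32 and 67). Upon depletion the same EXO1 had 106, 2376 and 2696 tags and BRIP1 242, 2527 and 5612. RMI1, a scaffold of the BLM and TOP3A complex, had 1368, 2319 and 3135 tags and stayed within 2-fold with doxycycline (693 and 1278). In each list these came from 1 peak, and whether peaks of the 22 genes also touch neighbours was not examined. TDRD3, the partner of TOP3B, had 1 peak of 72 tags in Doxy 0.0 and none in Doxy 1.0.

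The genes outside the list whose tags over the 5 lists were most like each member were found by the summed absolute difference in log2(tags + 1). FBXO28 was nearest to BLM at 1.07, with 132, 923, 1271, 228 and 744 tags. PTRH2 was nearest to TOP2A at 0.705, with 755, 2603, 0, 453 and 1163 tags, and so also had no peak in shRNA7. DTYMK was nearest to TOP1 (0.873), VMP1 to TOP3A (0.289), NCOA6 to TOP3B (0.324), CHRAC1 to RECQL (0.257), LCOR to RECQL4 (0.491) and B4GALT5 to TOP2B (0.136). For WRN it was PURG (0.243), which shares its TSS peak. For each member, 4 to 18 genes, the nearest included, had a difference at most 0.5 above the smallest, so none of these pairings is unique.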

How the data were processed

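RNAPII ChIP-seq peak lists of HEK293 cells were analysed, 1 library per group. The submitters' processing notes name CASAVA 1.8, Bowtie 0.12.7, MACS 1.4.2 and hg19, and peaks were called in each library against IgG. The labels name 1 untreated IgG library, taken as the background of both doxycycline lists. Tags per peak are raw counts, as deposited. Each p-value was deposited on a −log10 scale (multiplied by 10), called the score here. The fold enrichment is the ratio of peak height over local background as the authors deposited it. The deposited FDR is a percent, which MACS derives by exchanging ChIP and IgG.

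Peaks were assigned to GENCODE release 44 genes lifted to GRCh37, with spans widened by 500 bp. A peak touching several genes counts in full for each. Tags were summed and compared within each arm, called at 2-fold or where 1 of the 2 lists had a peak. Intervals are 95% Wilson intervals turned into odds. Promoters came from RefSeq. Python 3.11.15, numpy 2.4.6, pandas 2.3.3, scipy 1.17.1 and matplotlib 3.10.9 were used, and the code was tested on simulated peaks. The text names the 9 genes, RECQL5, protein-coding genes touched by their peaks, at most 4 related genes per comparison by tags (1 of them is not reported here), and the most alike gene of each. TDRD3 and the 4 genes in the interval without shRNA7 peaks were named after their values were seen. The members and lists were chosen with earlier results of these data known. Alternatives were stricter peaks, lists of equal length, merged peaks, other spans and windows, summits, and tags shared out by length.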

Additional observations from a re-analysis of the deposited data

How the results depend on the processing

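Over 22 summary results, 187 alternatives gave 153 values that stayed the same within 1.5 times or within the interval, 33 that moved and 1 that reversed. Over 17 single-gene folds, 150 alternatives left 105 within the interval and moved 45. A change of direction counted as reversed only for summary folds whose interval left out 1 and for genes called higher or lower. Other changes of direction are among those that moved. With doxycycline and fold enrichment of at least 10, the fold in peaks went from 1.32 to 0.571 and TOP1 from 1.66 to 0.665. With summits in the widened span, RECQL4 with doxycycline went from 0.858 to 1.51. A gene that lost its peak in 1 of the lists has no fold there, as TOP1 with shRNA7 in the cut lists, where it was lower (0 against 46 tags). With scores of at least 100, peaks over the 9 genes numbered 21 (shRNA5), 18 (shRNA7), 33 (Doxy 0.0) and 42 (Doxy 1.0), and 2 genes were higher with doxycycline. With FDR of at most 5%, the shRNA7 list had 24 peaks and a fold in tags of 4.90. With fold enrichment of at least 10, there were 9 (shRNA5), 8 (shRNA7) and 40 (Doxy 1.0) peaks, folds in peaks of 1.29, 1.14 and 0.571 and folds in tags of 2.51, 4.25 and 1.09 (shRNA5, shRNA7, doxycycline). With lists cut to the shorter one there were 13 (shRNA5) and 6 (shRNA7) peaks, folds in peaks of 1.62 and, reversed, 0.750, and folds in tags of 3.0, 3.04 and 1.83. In shRNA7 4 genes then had a TSS peak, 4 were higher and 2 lower, and 3 were higher with doxycycline. Over all genes the cut lists gave 66.9% (shRNA5) and 79.8% (shRNA7) higher, 17.4% lower with shRNA7, and 10.3% higher and 22.1% lower with doxycycline. Merging peaks less than 1 kb apart gave 25 (shRNA5), 47 (Doxy 0.0) and 48 (Doxy 1.0) peaks and a shRNA7 fold in tags of 6.34, and sharing out tags by length gave 5.12. Added after seeing the data, leaving out TOP2A gave 10.3 with shRNA7 and leaving out BLM gave 1.33 with doxycycline. Fewer peaks follow from the construction of the stricter, cut and merged lists, and the cause of the other shifts was not tested. WRN (shRNA5, shRNA7), TOP2B (both hairpins) and TOP3B (shRNA7) lost their peak in the cut lists, and TOP3A stayed within 2-fold of shCTRL (920 against 602 tags) with shRNA5 at fold enrichment of at least 10. No paired analysis was possible because there is 1 library in each group, and none could be left out. The lists hold no read totals, and intervals cover counting error only and say nothing of the spread between cultures.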
